A study of Mus musculus with 8 samples.

Results

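Hepatocyte-like barcodes were those cell barcodes of a mouse liver stromal preparation that carried hepatocyte transcripts and no transcript of 5 genes of other cell types. A barcode was a member where its unique molecular identifiers (UMIs, counts of captured transcript molecules) of Alb, Apoa1, Ttr, Ahsg, Serpina1c, Fabp1, Cps1 and Cyp3a11 summed to 20 or more and where it had 0 UMIs of Ptprc, Stab2, Cdh5, Cd79a and Epcam. A barcode present in several libraries was first counted only where its UMI total was highest, so that 3192 of 3416 deposited barcodes were kept. Of these, 1238 were members.

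The study sampled 8 male C57BL/6 mice, each giving 1 10x Genomics single-cell library, with 4 mice on a high fat, high cholesterol (HFHC) diet and 4 on a control diet. For every mouse the labels name 6 to 8 weeks as the age and 20 to 32 weeks as the time on diet, and they name no genetic modification or other treatment. The sample titles call the HFHC diet high in calories where the design text says cholesterol, and the title of HFHC 4 numbers its animal 14. The cells came from a nonparenchymal liver preparation depleted of dead cells, stained for CD45, CD31, CD146 and podoplanin and sorted to enrich endothelium, so hepatocytes were not what the sort aimed at and their number in a library does not measure their number in the liver.

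Hepatocytes are the metabolic cells of the liver. They secrete most plasma proteins, make bile acids and cholesterol, store and burn fat, and clear drugs through cytochrome P450 enzymes and conjugating enzymes. Their tasks are divided along the lobule: cells near the portal vein make urea and glucose, and cells near the central vein make glutamine and hold most P450 enzymes. In male mice, pulses of growth hormone maintain a set of hepatocyte genes that includes the major urinary proteins (Mup). Diets rich in fat and cholesterol are commonly used in mice to load hepatocytes with lipid.

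Members lay almost wholly in 1 library of each diet. HFHC 3 had 617 members among 857 kept barcodes (72.0%, Wilson 95% interval 68.9 to 74.9), and control 2 had 618 among 875 (70.6%, 67.5 to 73.6). Control 4 had 3 members among 94 barcodes (3.19%). HFHC 1, HFHC 2, HFHC 4, control 1 and control 3 had 0 of 47, 74, 616, 55 and 574 barcodes. The upper Wilson 95% limits of these shares were 7.56, 4.93, 0.620, 6.53 and 0.665%, in that order. The mean share was 18% ± 36 in HFHC libraries and 18.5% ± 34.8 in control libraries (SD, n = 4 each), a difference of −0.456 percentage points (two-sided exact permutation test, p = 1). The spread within a diet was thus far larger than the difference between diets. Members were already known to lie mostly in HFHC 3 and control 2, 1 library of each diet. The test was therefore bound to give a high p and cannot decide on an effect of diet. Intervals and upper limits in the text cover counting error only.

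**Figure D1:**
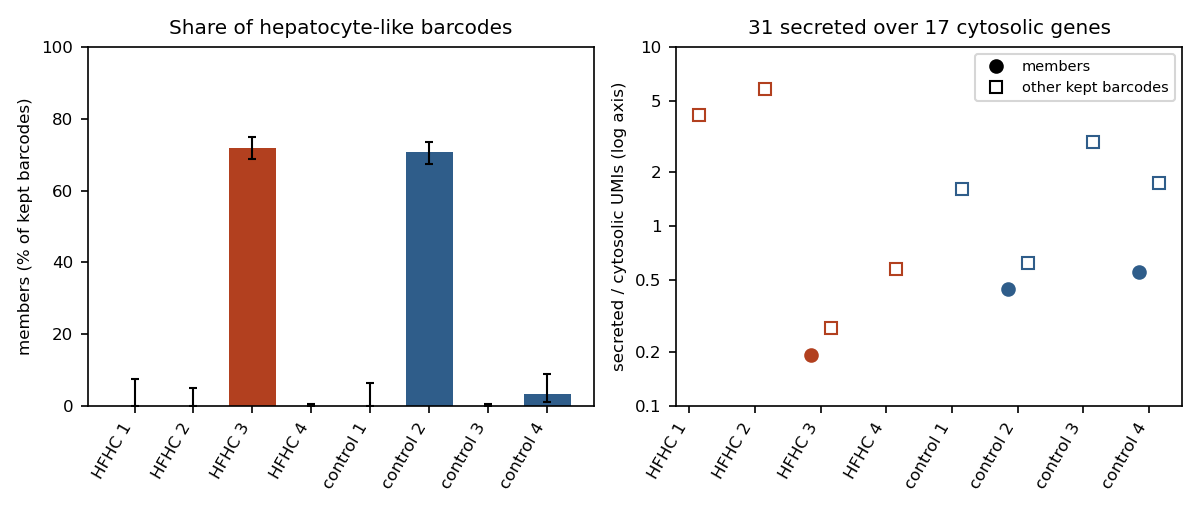
Left, members as a percentage of kept barcodes in each library, HFHC libraries in red and control libraries in blue, with Wilson 95% intervals. Right, UMIs of 31 secreted plasma protein genes divided by UMIs of 17 cytosolic hepatocyte genes (log axis), in members (filled circles) and in the other kept barcodes (open squares). HFHC 3 and control 2 hold nearly all members, and members of HFHC 3 have the lowest ratio, at 0.193, against 0.447 in members of control 2.

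Some libraries stood apart before any comparison of diets. HFHC 1 to 3 and control 1 and 2 shared 33 to 65 barcodes in each of their 10 pairs, against 0 to 4 in the 18 other pairs. Among members, 10 barcodes of HFHC 3 and 0 of control 2 also occurred in another library. Control 4 had Xist, which coats the inactive X chromosome in female cells, in 67 of its 94 barcodes and thus went against its label of a male mouse, while the 7 other libraries had no Xist UMI. Kept libraries held 47 to 875 barcodes and 170448 to 2309209 UMIs.

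Members of HFHC 3 were deeper than members of control 2. They had a median of 2012 UMIs (range 538 to 15752) and 940 genes, and their counts summed to 1560632 UMIs. Members of control 2 had a median of 1116 UMIs (500 to 10640) and 593 genes, and summed to 998316 UMIs. The 8 genes of the rule made up 4.11% of member UMIs in HFHC 3 and 4.97% in control 2, with a median of 84 and 55 marker UMIs per member.

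The label was checked against hepatocyte genes that the rule did not use. All 17 of these, among them Hnf4a, the transcription factor that maintains hepatocyte identity, and Tat, Tdo2 and Hpd, which break down amino acids, were at a higher level per UMI in members than in the other barcodes of the same library. Together they reached 8618 CPM (UMIs of a gene per 1000000 UMIs of the barcodes summed) in members of HFHC 3, against 1114 CPM in its other barcodes, and 9379 CPM in members of control 2, against 1498 CPM in its other barcodes. Hnf4a stood at 117 CPM in members of HFHC 3 and 143 CPM in members of control 2. These values describe the members and were not tested, because the same barcodes were chosen on hepatocyte transcripts.

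Transcripts of other liver cells were scarce in members. The 10 markers of sinusoidal endothelium summed to 4 UMIs (2.56 CPM, 7 of 10 at 0) in members of HFHC 3 and to 89 UMIs (89.2 CPM, 1 of 10 at 0) in members of control 2, against 365 CPM and 3021 CPM in the other barcodes of the same libraries. Stab2, which is among these markers, was at 0 in every member by the rule, so it is the 1 at 0 in control 2. The 8 Kupffer cell markers summed to 1.92 and 2.00 CPM, with 6 of 8 at 0 in members of each library. Haemoglobin transcripts of red cells summed to 115 CPM in members of HFHC 3 and 496 CPM in members of control 2, and to 191 and 25590.5 CPM in the other barcodes. Of these 4 transcripts, 3 were at a higher level in members than in other barcodes of HFHC 3, and 0 in control 2. Between the libraries, lymphatic endothelial markers went the other way, at 27.6 CPM (5 of 6 at 0) in members of HFHC 3 and 16 CPM (4 of 6 at 0) in members of control 2. All 43 UMIs in HFHC 3 members were of Prox1, so this sum does not show lymphatic transcripts as a set. Members of control 2 thus carried more sinusoidal endothelial and erythroid transcripts than members of HFHC 3, and the part of this in the comparisons below was not tested.

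A pair of features that the rule did not use set members apart from the other barcodes. Malat1, a long noncoding RNA that stays in the nucleus, was at 176 CPM in members of HFHC 3, against 21951 CPM in its other barcodes. In control 2 it was at 299 CPM in members, against 35165 CPM in the other barcodes. The barcodes outside members in the 6 other libraries held 17891 to 38122.5 CPM. No Malat1 UMI was found in 505 of 617 members of HFHC 3 and 448 of 618 members of control 2, against 42 of 240 and 52 of 257 other barcodes. Neat1, a second nuclear RNA, was at 8.33 and 14.0 CPM in members of HFHC 3 and control 2, and at 343 and 320 CPM in their other barcodes. The values change near the threshold of 20 marker UMIs. In HFHC 3, the 14 members with 20 to 24 marker UMIs had 354 CPM of Malat1, and the 12 barcodes with 15 to 19 had 11211 CPM. In control 2, the 29 members with 20 to 24 had 162 CPM, the 26 barcodes with 15 to 19 had 458 CPM and the 12 with 10 to 14 had 15300.3 CPM.

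Transcripts encoded by the mitochondrial genome separated the members of the libraries. They made up a median of 0.0335% of a member's UMIs in HFHC 3 (range 0 to 4.72) and 4.97% in control 2 (2.25 to 9.86), and 0.0740% and 4.43% of the summed UMIs. All 13 mitochondrially encoded genes were at least 2-fold lower in HFHC 3 members. For mt-Atp6, a subunit of ATP synthase, the level was 189.7 CPM in HFHC 3 members and 12470.0 CPM in control 2 members. In HFHC 3, 246 of 617 members had no mitochondrially encoded UMI and 609 were under 1%, whereas all 618 members of control 2 were at 1% or more. The gap was smaller outside members, at 2.09% of the summed UMIs of other barcodes in HFHC 3 and 6.26% in control 2. The 3 members of control 4 had a median of 0.0679%, within the range of HFHC 3 members and below that of control 2 members.

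**Figure D2:**
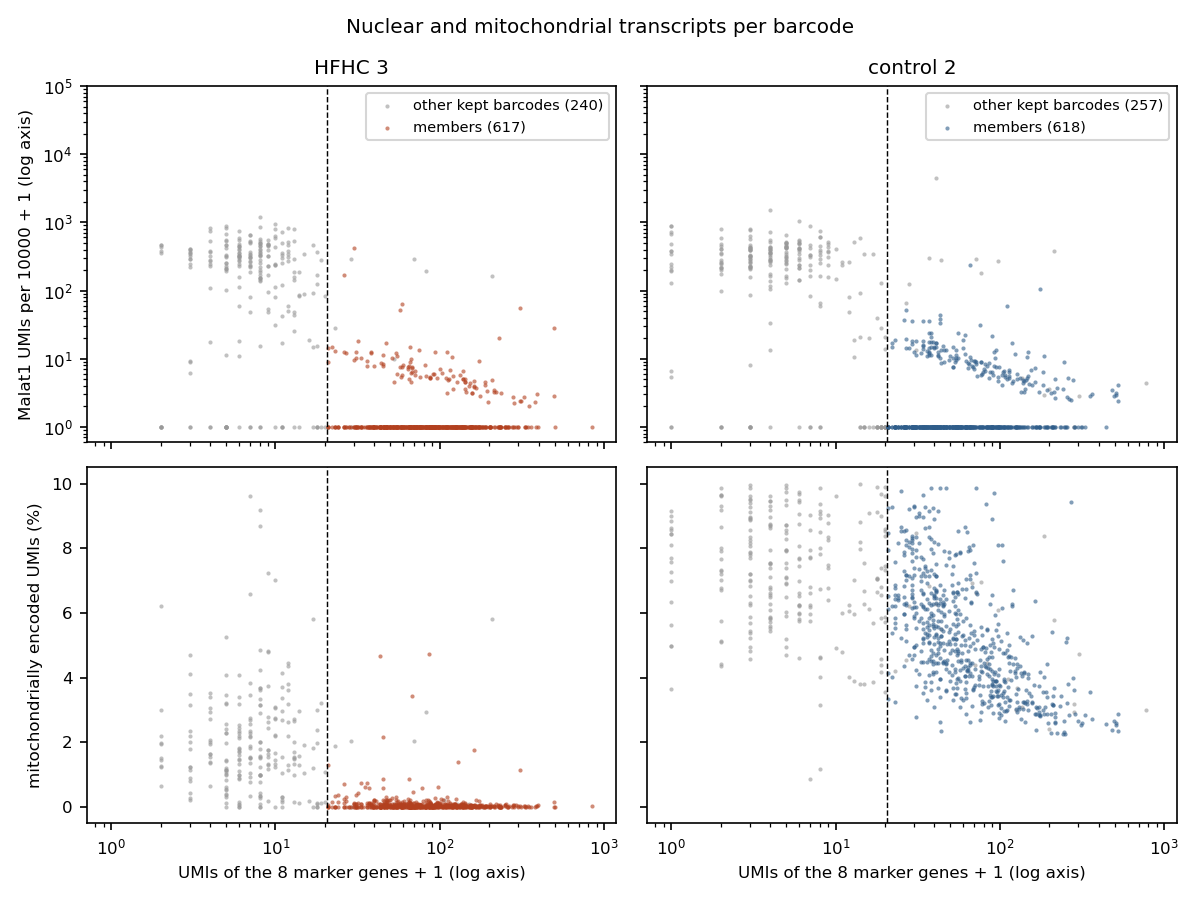
Each point is a kept barcode of HFHC 3 (left, members in red) or control 2 (right, members in blue), with other barcodes in grey, plotted by its UMIs of the 8 marker genes plus 1 (log axis; the dashed line marks the threshold of 20). The top panels show Malat1 UMIs per 10000 plus 1 (log axis) and the bottom panels the percentage of mitochondrially encoded UMIs. Members of both libraries lie low in Malat1, and members of HFHC 3 lie near 0 in mitochondrial transcripts, with a median of 0.0335%, against 4.97% in control 2.

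Messages for secreted plasma proteins, which are translated on the endoplasmic reticulum, and messages for cytosolic enzymes and binding proteins differed in balance. The 31 secreted genes had 0.193 UMIs for each UMI of 17 cytosolic genes in members of HFHC 3, 0.447 in members of control 2 and 0.558 in the 3 members of control 4. Outside members this ratio was 0.272 in HFHC 3 and 0.625 in control 2, and 0.583 to 5.82 in the 6 other libraries. The ratio of Alb to Fabp1 UMIs was 0.0944 in members of HFHC 3, 0.194 in members of control 2 and 0.0827 in the 3 members of control 4, against 0.786 to 145.7 outside members in the 6 other libraries. Fabp1, the cytosolic fatty acid binding protein of hepatocytes, had 32459 CPM in members of HFHC 3 and 31542 CPM in members of control 2, and 9.45 to 567 CPM in all kept barcodes of the 6 other libraries. Alb and Fabp1 are both genes of the rule, so members were chosen partly on them. Outside members, Fabp1 had only 6 UMIs in HFHC 1 and 3 in HFHC 2. The list of cytosolic genes was chosen after its values had been seen, so both ratios are descriptions.

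Next, the members of HFHC 3 were set against the members of control 2, gene by gene. With 1 mouse per diet the comparison has no replicate, and diet, mouse, library, depth and the mitochondrial share cannot be told apart in it. Ratios are the CPM of HFHC 3 members over the CPM of control 2 members, with an exact conditional 95% interval for counting error. Of 7516 genes with at least 10 UMIs over both, 843 (11.2%) were at least 2-fold higher and 394 (5.24%) at least 2-fold lower in HFHC 3 members. The median log2 ratio over these genes was 0.17, so a list with no change of its own stands near that value. The counts of each list below are to be read against the shares of 11.2% and 5.24%. Scaling by edgeR's TMM factors moved the median to −0.01 and the split to 628 higher and 558 lower, and DESeq2's size factors gave 629 and 552.

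The genes with the largest ratios among abundant member transcripts came from a few families. Among the 10 highest ratios by the naming rule were those of Saa2, Saa1, Ccnd1, Mt1, Ifi27, Apol9a, Apol9b, Gstm3 and Arf4, out of 40 genes that met the rule. The 10 lowest ratios were those of Mup11, Mup7, Mup21, Serpina1e, Mup3, Cyp2c50, Mup9, Idi1, Mup12 and Mup14, out of 34. In the other barcodes of the same libraries, all 10 genes of the lowest ratios and 7 of the 9 named for the highest lay on the same side of a ratio of 1, with Ccnd1 and Mt1 as the exceptions. Those barcodes also carried hepatocyte transcripts, and the share over all genes was not counted, so this is a description. Some counts there were low, such as 1 Mup11 UMI in HFHC 3 against 39 in control 2. The Mup, Serpina1, Saa, Apol9, Gstm and Cyp2c genes have near-identical copies, between which reads could have been split or lost in counting, so the values of single copies are uncertain.

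**Figure D3:**
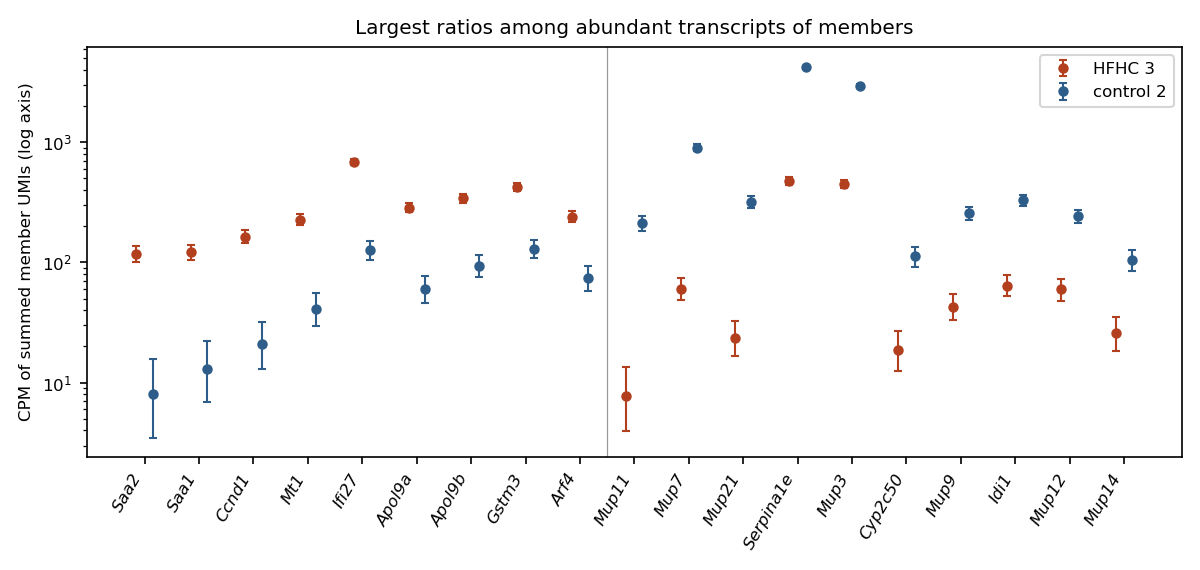
CPM of summed member UMIs (log axis) for 9 of the 10 highest ratios (left of the line) and the 10 lowest (right of it), with HFHC 3 in red and control 2 in blue. Bars are exact Poisson 95% intervals, which cover counting error only. Saa2 has 118 CPM in HFHC 3 and 8.01 CPM in control 2, and Mup11 has 7.69 CPM in HFHC 3 and 211 CPM in control 2.

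Acute phase proteins are plasma proteins whose synthesis in hepatocytes goes up in inflammation. Of 15 such genes compared, 6 were at least 2-fold higher and 0 at least 2-fold lower, with a median log2 ratio of 0.42. Saa2, a serum amyloid A, had 118 CPM in HFHC 3 members (184 UMIs), against 8.01 CPM in control 2 members (8 UMIs), a ratio of 14.7 (7.31 to 34.6). Its neighbour Saa1 had 122 CPM in HFHC 3 members and 13 CPM in control 2 members, a ratio of 9.35 (5.34 to 17.9). Both lay on chromosome 7, and in the 6 other libraries they reached at most 1.20 CPM (Saa1) and 1.85 CPM (Saa2) over all kept barcodes. Orm1, orosomucoid, was at 598 CPM in HFHC 3 members and 278 CPM in control 2 members (ratio 2.15, 1.88 to 2.47). The iron hormone gene Hamp, at 1295 CPM in HFHC 3 members and 1389 CPM in control 2 members, and the haem carrier gene Hpx, at 304 and 279 CPM, were within 2-fold.

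The serum amyloid messages were found in a minority of members. Saa2 was found in 86 of 617 members of HFHC 3 (13.9%) and in 10 of its 240 other barcodes (4.17%), at median depths of 2012 and 2315 UMIs. In control 2 it was found in 4 of 618 members (0.647%) and 0 of 257 other barcodes, at median depths of 1116 and 2173 UMIs. The 10% of HFHC 3 members with most Saa2 UMIs held 87.0% of them, and 1 member held 19. After thinning each member to 1000 UMIs, which left out 77 members of HFHC 3 and 269 of control 2, Saa2 was found in 9.81% of 540 members of HFHC 3 and 0.860% of 349 members of control 2.

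The promoters of Saa1 and Saa2 are shown because the pair gave the largest ratios among genes of its list with at least 100 CPM in the higher library. In mouse, liver serum amyloid genes are known targets of C/EBP factors. Sequences are those of RefSeq on GRCm38.p6, from 250 bases before to 50 bases after the gene start, on the strand of the gene, with any match to the C/EBP-type letters TTGCNCAA on either strand in capitals. Saa1 lies at chr7:46742931-46743230 on the minus strand and Saa2 at chr7:46751583-46751882 on the plus strand.
Saa1: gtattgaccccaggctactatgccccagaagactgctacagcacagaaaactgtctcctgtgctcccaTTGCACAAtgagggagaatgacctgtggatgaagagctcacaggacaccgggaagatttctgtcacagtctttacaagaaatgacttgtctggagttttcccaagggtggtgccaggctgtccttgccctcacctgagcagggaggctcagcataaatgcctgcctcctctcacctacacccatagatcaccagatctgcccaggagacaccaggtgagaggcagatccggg
Saa2: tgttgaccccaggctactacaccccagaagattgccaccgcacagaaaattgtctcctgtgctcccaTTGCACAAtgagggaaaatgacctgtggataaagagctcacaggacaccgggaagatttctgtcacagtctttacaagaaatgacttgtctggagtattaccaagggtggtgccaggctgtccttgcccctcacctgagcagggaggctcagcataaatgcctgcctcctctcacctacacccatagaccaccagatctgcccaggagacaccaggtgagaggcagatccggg
Each held 1 match, TTGCACAA, which began 182 bases before the gene start in Saa1 and 183 before it in Saa2. These letters were in the promoter of 6 of the 15 listed acute phase genes with a promoter in the table, and of 3.37% of 27025 genes. A match of letters is a description and was not tested as a binding site.

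Interferon response genes stood higher in HFHC 3 members. Of 17 compared, 10 were at least 2-fold higher and 0 at least 2-fold lower (median log2 ratio 1.52). Ifi27, a small membrane protein induced by type I interferon, had 688 CPM in HFHC 3 members and 126 CPM in control 2 members (ratio 5.45, 4.53 to 6.61). Over all kept barcodes of the 6 other libraries it had 317 to 539 CPM. Control 2 members lay below that range and HFHC 3 members above it. It was found in 401 of 617 members of HFHC 3 (65.0%) and 87 of 618 members of control 2 (14.1%), against 36.3% and 30.0% of the other barcodes, and in 43.9% and 11.7% of members thinned to 1000 UMIs. Ifi27l2b had 46 UMIs in HFHC 3 members and 0 in control 2 members, at least 9.81-fold higher when the 0 is set to 3 counts. The antigen presentation genes B2m, at 666 CPM in HFHC 3 members and 721 CPM in control 2 members, and Psmb8, at 169 and 116 CPM, were within 2-fold.

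Isg15, a ubiquitin-like protein, was chosen after its values and its promoter had been seen. It had 154 CPM in HFHC 3 members and 49.1 CPM in control 2 members (ratio 3.15, 2.31 to 4.37), and 140 to 188 CPM over all kept barcodes of the 6 other libraries. Of its UMIs in HFHC 3 members, 63.9% lay in 10% of them, and 1 member held 38. Its promoter, at chr4:156200769-156201068 on the minus strand of GRCm38.p6 (RefSeq), is shown with matches to the response element core GAAANNGAAA on either strand in capitals.
Isg15: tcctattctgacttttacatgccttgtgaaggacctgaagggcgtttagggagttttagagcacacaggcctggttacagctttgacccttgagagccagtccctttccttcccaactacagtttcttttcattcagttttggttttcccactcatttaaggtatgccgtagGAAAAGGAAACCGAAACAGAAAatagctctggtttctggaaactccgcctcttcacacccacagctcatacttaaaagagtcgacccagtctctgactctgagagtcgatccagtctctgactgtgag
Its 3 matches overlap one another and begin 78, 72 and 66 bases before the gene start. The core was in the promoter of 8 of 16 listed interferon genes with a promoter in the table, B2m and Bst2 among them, and of 3.99% of 27025 genes.

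Genes of cholesterol synthesis stood lower in HFHC 3 members. Hepatocytes lower this pathway when sterols are plentiful, through the transcription factor SREBP2. Of 20 genes compared, 11 were at least 2-fold lower, 0 at least 2-fold higher and 19 below a ratio of 1 (median log2 ratio −1.04). Idi1, which isomerises the isoprenoid building block, had 64.1 CPM in HFHC 3 members and 328 CPM in control 2 members, a ratio of 0.196 (0.155 to 0.245). Mvd and Pmvk, which act on mevalonate, had ratios of 0.355 (0.228 to 0.546) and 0.396 (0.332 to 0.471). Acat2, a cytosolic thiolase at the start of the pathway, had 133 CPM in HFHC 3 members and 271 CPM in control 2 members, a ratio of 0.489 (0.406 to 0.588). Fdps, with 490.2 CPM in HFHC 3 members and 747 CPM in control 2 members, was lower by less than 2-fold (ratio 0.656). Idi1 was found in 13.1% of members of HFHC 3 and 33.3% of members of control 2, against 7.92% and 12.1% of the other barcodes, and in 5.74% and 24.9% of members thinned to 1000 UMIs.

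Hmgcs1, which makes HMG-CoA, had 174 CPM in HFHC 3 members and 359 CPM in control 2 members (ratio 0.484, 0.412 to 0.569). Its promoter, at chr13:119690101-119690400 on the plus strand of GRCm38.p6 (RefSeq), is shown because it alone among 16 listed genes with a promoter in the table held the sterol regulatory element letters TCACNCCAC on either strand, which are in capitals.
Hmgcs1: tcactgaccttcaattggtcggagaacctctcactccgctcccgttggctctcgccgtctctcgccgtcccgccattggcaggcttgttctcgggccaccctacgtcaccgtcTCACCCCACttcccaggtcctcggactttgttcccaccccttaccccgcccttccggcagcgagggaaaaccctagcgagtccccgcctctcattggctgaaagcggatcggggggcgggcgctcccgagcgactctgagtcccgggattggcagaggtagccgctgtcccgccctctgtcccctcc
The match began 137 bases before the gene start, and these letters were in the promoter of 1.44% of 27025 genes.

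Genes that use or export sterols were thinly covered. Of 6 genes of the cholesterol efflux list that could be compared, 4 were at least 2-fold higher. Abcg8, part of the transporter that moves sterols into bile, had 25 UMIs in HFHC 3 members and 3 in control 2 members (ratio 5.33, 1.63 to 27.6), and Scarb1, a receptor for high density lipoprotein, had 25 and 5 (ratio 3.20, 1.20 to 10.7). Nr1h3, which encodes the sterol sensor LXR alpha, had 154 CPM in HFHC 3 members and 156 CPM in control 2 members (ratio 0.988). In the bile acid list, 0 of 15 genes were at least 2-fold higher and 4 at least 2-fold lower (median log2 ratio −0.59). Cyp8b1, which sets the balance of bile acids, had 11.5 CPM in HFHC 3 members and 30.1 CPM in control 2 members (ratio 0.384, 0.201 to 0.711), and Nr1h4, the bile acid receptor FXR, had a ratio of 0.649 (0.510 to 0.826).

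Lipid droplet genes were mostly higher in HFHC 3 members, with 5 of 15 at least 2-fold higher, 1 at least 2-fold lower and a median log2 ratio of 0.57. Plin2, which coats lipid droplets, had 1367 CPM in HFHC 3 members and 516 CPM in control 2 members (ratio 2.65, 2.41 to 2.92), and 27.2 to 158 CPM over all kept barcodes of the 6 other libraries. It was found in 85.6% of members of HFHC 3 and 44.7% of members of control 2, and in 68.0% and 37.2% of members thinned to 1000 UMIs. Plin5 and Cidec, both of the droplet surface, had ratios of 2.69 (1.83 to 4.07) and 2.68 (1.65 to 4.54). The gene at least 2-fold lower was Fabp4, a fatty acid binding protein of endothelial cells and fat cells, with 11 UMIs in HFHC 3 members and 23 in control 2 members.

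Fat burning and fat making genes differed little as lists. Of 24 fatty acid oxidation genes, 1 was at least 2-fold higher and 1 at least 2-fold lower (median log2 ratio 0.23), and of 15 fatty acid synthesis genes 2 and 1 were (0.01). Acaa1b, a peroxisomal thiolase, had 4435 CPM in HFHC 3 members and 3137 CPM in control 2 members (ratio 1.41), and Scd1, which desaturates fatty acids, had 697 and 493 CPM (ratio 1.41). Relative to the median of all genes the synthesis list lay below, at −0.16, and the oxidation list above, at 0.06.

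Of 16 apolipoprotein and lipoprotein assembly genes, 2 were at least 2-fold higher and 2 at least 2-fold lower (median log2 ratio −0.46), against 11.2% and 5.24% of all genes compared. Apoa4, a lipoprotein component linked to fat export, had 138 CPM in HFHC 3 members and 50.1 CPM in control 2 members (ratio 2.76, 2.02 to 3.84). Apoc2, the activator of lipoprotein lipase, had a ratio of 2.44 (1.69 to 3.60). Apoc1 reached 9356 CPM in HFHC 3 members and 7334 CPM in control 2 members (ratio 1.28), and Apoa2 4285 and 5734 CPM (ratio 0.747).

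The growth hormone dependent and sex-biased genes had the lowest median of the lists of nuclear genes, at a log2 ratio of −2.02. Of 24 compared, 18 were at least 2-fold lower and 0 at least 2-fold higher in HFHC 3 members. The Mup genes, which encode pheromone carriers that males excrete in urine, made up 10 of the 18. Mup20 had 3101 CPM in HFHC 3 members and 9031 CPM in control 2 members (ratio 0.343, 0.331 to 0.356). Mup3 had 451 and 2944 CPM, and Mup7 had 60.2 and 901 CPM, in HFHC 3 and control 2 members. Hsd3b5, a male-biased steroid enzyme, had 0 UMIs in HFHC 3 members and 34 in control 2 members, at least 17.7-fold lower when the 0 is set to 3 counts. The receptor gene Ghr, at 301 CPM in HFHC 3 members and 325 CPM in control 2 members (ratio 0.928, 0.804 to 1.07), was not among them.

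Secreted plasma proteins stood lower, with 5 of 31 at least 2-fold lower, 0 at least 2-fold higher and 23 below a ratio of 1 (median log2 ratio −0.40). Alb, serum albumin, had 3064 CPM in HFHC 3 members and 6133 CPM in control 2 members (ratio 0.500, 0.481 to 0.519). Among the alpha-1-antitrypsin copies, which inhibit proteases in plasma, Serpina1e had 473 CPM in HFHC 3 members and 4197 CPM in control 2 members (ratio 0.113). Serpina1c and Serpina1d had ratios of 0.318 and 0.349. Alb, Ttr and Serpina1c were among the 8 genes of the rule, which set a minimum on the sum of all 8 and on no single one. Serpina1e was found in 36.6% of members of HFHC 3 and 83.7% of members of control 2, against 15.8% and 38.5% of the other barcodes, and in 23.0% and 78.5% of members thinned to 1000 UMIs. In the coagulation list, 1 of 15 genes was at least 2-fold higher and 1 at least 2-fold lower, and in the complement list 0 and 3 of 16. Fgb and Fgg, chains of fibrinogen, had ratios of 1.34 (1.15 to 1.56) and 1.03 (0.883 to 1.20).

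Unfolded protein response genes, which help proteins fold in the endoplasmic reticulum, also stood lower, with 5 of 17 at least 2-fold lower, 1 at least 2-fold higher and a median log2 ratio of −0.71. Hsp90b1, a chaperone there, had 15 UMIs in HFHC 3 members and 33 in control 2 members (ratio 0.291, 0.147 to 0.550), and Pdia3 and Sdf2l1 had ratios of 0.407 and 0.415. Xbp1, a transcription factor of this response, had 153 CPM in HFHC 3 members and 115 CPM in control 2 members (ratio 1.32).

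**Figure D4:**
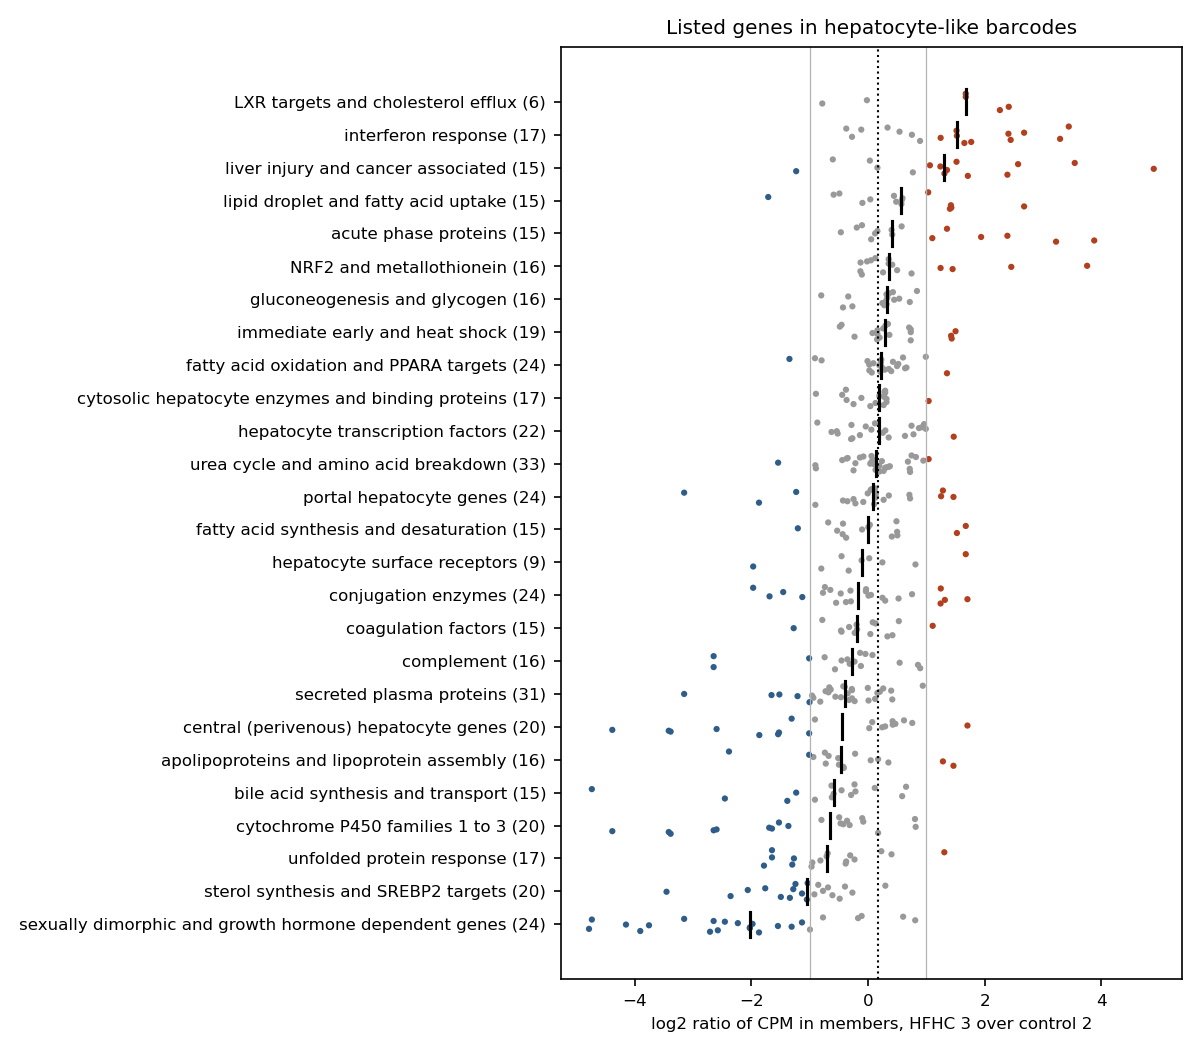
Log2 ratio of CPM in members, HFHC 3 over control 2, for the genes of each list that could be compared (number in brackets), with the list median as a black bar. Grey lines mark a 2-fold difference, red and blue points lie beyond them, and the dotted line is the median of all 7516 genes at 0.17. Lists of under 5 compared genes and the mitochondrially encoded genes, whose median is −6.04, are not drawn.

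Of 15 genes that mark liver injury or liver cancer, 10 were at least 2-fold higher in HFHC 3 members and 1 at least 2-fold lower (median log2 ratio 1.31). Ly6d, a surface protein, had 140 UMIs in HFHC 3 members and 3 in control 2 members (ratio 29.9, 10 to 147). Anxa2, a membrane-binding annexin, had 187 CPM in HFHC 3 members and 16 CPM in control 2 members (ratio 11.7, 7.07 to 20.7). Both were abundant outside members too, with Ly6d at 411 and 465 CPM and Anxa2 at 482 and 345 CPM in the other barcodes of HFHC 3 and control 2. Ly6d was found in 16.4% of members and 13.3% of other barcodes in HFHC 3, and in 0.485% of members and 18.3% of other barcodes in control 2. Thinned to 1000 UMIs, 8.33% of members of HFHC 3 and 0.860% of members of control 2 had it. Immune and biliary cells carry several of these genes. Leukocyte markers summed to 115 CPM in members of HFHC 3 (2 of 8 at 0) and 70.1 CPM in members of control 2 (2 of 8 at 0), and cholangiocyte markers to 40.4 CPM (2 of 6 at 0) and 13 CPM (3 of 6 at 0). Ptprc and Cd79a, the leukocyte markers at 0, and Epcam among the cholangiocyte markers were at 0 by the rule. The part of leukocyte and biliary transcripts in the ratios was not tested. The keratins Krt8 and Krt18, which form the hepatocyte cytoskeleton, had 777 and 952 CPM in HFHC 3 members, against 329 and 456 CPM in control 2 members. Their ratios were 2.37 (2.09 to 2.68) and 2.09 (1.88 to 2.33), with Krt18 at 1.85 under TMM scaling.

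Stress genes divided. Of 16 NRF2 target and metallothionein genes, 4 were at least 2-fold higher and 0 at least 2-fold lower (median log2 ratio 0.36). The metal-binding metallothioneins Mt1 and Mt2 had 226 and 94.8 CPM in HFHC 3 members and 41.1 and 7.01 CPM in control 2 members, ratios of 5.49 (3.97 to 7.79) and 13.5 (6.40 to 34.2). Outside members the order was the other way, with Mt1 at 176 CPM in HFHC 3 and 346 CPM in control 2. Of the Mt1 UMIs in HFHC 3 members, 82.4% lay in 10% of them. Srxn1, an antioxidant enzyme, had a ratio of 2.74 (1.81 to 4.25), while Prdx1 and Gpx1, which remove peroxides, had ratios of 1.28 and 1.34. Of 19 immediate early and heat shock genes 3 were at least 2-fold higher and 0 at least 2-fold lower, with Junb at 70.5 CPM in HFHC 3 members and 26 CPM in control 2 members, and at 1721 and 827 CPM in their other barcodes. Of all genes compared, 11.2% were at least 2-fold higher and 5.24% at least 2-fold lower.

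Outside the lists' themes, Ccnd1, cyclin D1, which drives entry into the cell cycle, had 164 CPM in HFHC 3 members and 21 CPM in control 2 members (ratio 7.80, 4.99 to 12.8). In HFHC 3, it was found in 27.1% of members and 15.4% of other barcodes. In control 2 the order was the other way, with 2.75% of members and 17.5% of other barcodes. After thinning to 1000 UMIs, Ccnd1 was found in 12.4% of members of HFHC 3 and 2.58% of members of control 2.

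Amino acid and sugar metabolism held near the median of all genes. Of 33 urea cycle and amino acid genes, 1 was at least 2-fold higher and 1 at least 2-fold lower (median log2 ratio 0.14, and −0.04 under TMM scaling), and of 16 genes of gluconeogenesis and glycogen 0 in either direction (0.32). Ass1, a urea cycle enzyme, had 8563 CPM in HFHC 3 members and 7104 CPM in control 2 members (ratio 1.21). Bhmt, which remethylates homocysteine, had 7137 and 3469 CPM (ratio 2.06, and 1.82 under TMM scaling).

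P450 enzymes of families 1 to 3 stood lower, with 9 of 20 genes at least 2-fold lower, 0 at least 2-fold higher and a median log2 ratio of −0.64. Cyp2e1, which oxidises ethanol, had 44.2 CPM in HFHC 3 members and 127 CPM in control 2 members (ratio 0.348, 0.255 to 0.470), and Cyp2c29 had 7.05 and 75.1 CPM (ratio 0.0938). Cyp3a11, a gene of the rule, had 85.9 and 49.1 CPM (ratio 1.75).

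Many of these P450 genes belong to the central zone of the lobule, and the zones were examined next. Of 20 central genes compared, 9 were at least 2-fold lower and 1 at least 2-fold higher (median log2 ratio −0.44), and of 24 portal genes 3 and 3 were (0.09, and −0.09 under TMM scaling). The central list did not fall as a whole, with 10 genes above and 10 below a ratio of 1. Its summed level was 10256 CPM in HFHC 3 members and 9465 CPM in control 2 members. The central list shares genes with the P450 list, so the counts of these lists are not independent. Over all genes compared, 5.24% were at least 2-fold lower and 11.2% at least 2-fold higher. Glul, the glutamine synthetase of the cells around the central vein, had 213 CPM in HFHC 3 members and 775 CPM in control 2 members (ratio 0.275, 0.241 to 0.313). It was found in 147 of 617 members of HFHC 3 (23.8%) and 86 of 618 members of control 2 (13.9%), and 1 member held at most 36 and 179 UMIs. After thinning to 1000 UMIs it was found in 69 of 540 members of HFHC 3 (12.8%) and 42 of 349 members of control 2 (12%), so the gap in shares was small at equal depth. Of the Glul UMIs in control 2 members, 96.9% lay in 10% of them. In the other barcodes Glul was found in 20.0% (HFHC 3) and 29.2% (control 2), at median depths of 2315 and 2173 UMIs.

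To see how members differ among themselves, members with a UMI of a central anchor gene (Glul, Oat, Slc1a2 or Lhpp) or of a portal anchor gene (Hal, Sds, Gls2 or Etnppl) were compared with members without one, within each library. A central anchor was found in 194 members of HFHC 3 (31.4%) and 138 of control 2 (22.3%), a portal anchor in 404 (65.5%) and 362 (58.6%), and both in 119 (19.3%) and 49 (7.93%). Members with an anchor were deeper, with a median of 2390.5 UMIs in HFHC 3 and 1744.5 in control 2 for the central anchors, against 1857 and 985.5 without. Barcodes of 1 library are not replicates, so these values carry no test.

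In control 2 members, central genes went with central anchors. All 13 central genes had a higher CPM in members with a central anchor, 11 of them at least 2-fold, with a median ratio of 4.90. Cyp2e1 had 276 CPM with and 56.3 CPM without a central anchor, and Ang, an angiogenin ribonuclease, had 170 and 10.4 CPM. With a portal anchor, all 13 central genes were lower, with a median ratio of 0.118, and 17 of 20 portal genes were higher (median ratio 1.91). Pck1, an enzyme of gluconeogenesis, had 1515 CPM with and 510.4 CPM without a portal anchor. With a central anchor, 2 of 20 portal genes were higher and 6 at least 2-fold lower (median ratio 0.655).

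In HFHC 3 members the ratios were smaller, and portal genes showed no common order by central anchors. Of 12 central genes, 11 were higher with a central anchor, 2 of them at least 2-fold, with a median ratio of 1.42. Cyp2e1 had 61.5 CPM with and 32.9 CPM without a central anchor. Of 20 portal genes, 9 were higher with a central anchor and 0 at least 2-fold lower (median ratio 0.957), with Pck1 at a ratio of 1.32. With a portal anchor all 12 central genes were lower (median ratio 0.470) and 18 of 20 portal genes higher (median ratio 1.37). The central genes compared differ by 1 between the libraries, because each needed 20 UMIs in the library. The median log2 ratios after thinning to 1000 UMIs were 0.60 in HFHC 3 and 2.39 in control 2 for central genes by central anchors, so the gap was as wide at equal depth. The difference between the libraries was not tested.

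**Figure D5:**
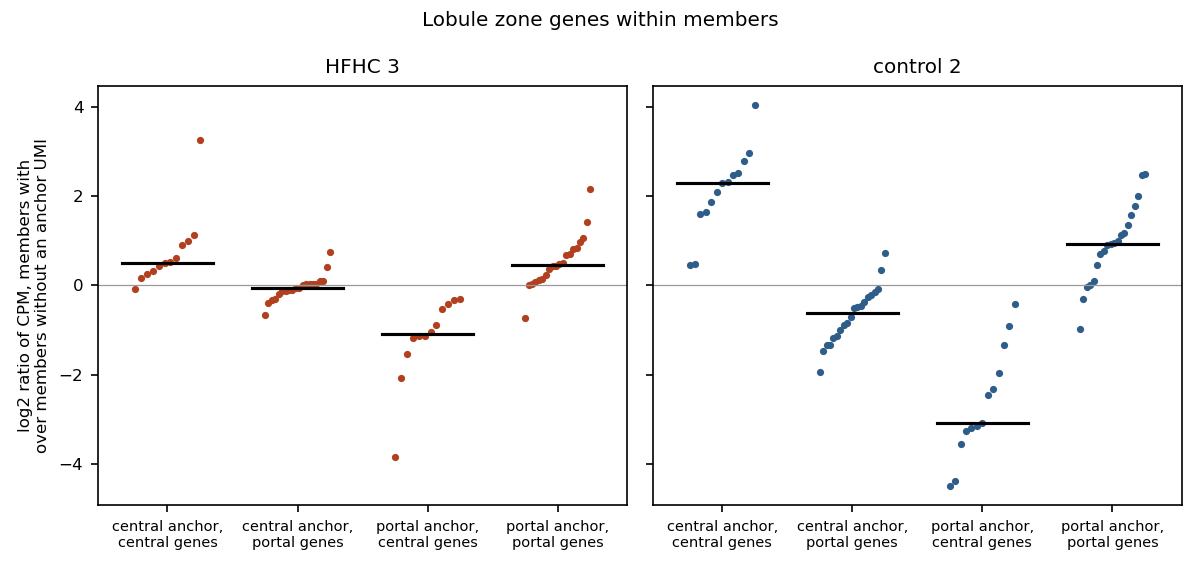
Log2 ratio of CPM in members with over members without a UMI of a zone's anchor genes, for central and portal genes that are not anchors, in HFHC 3 (left, red) and control 2 (right, blue). Points are genes, bars are medians. Central genes by central anchors have a median of 0.51 in HFHC 3 and 2.29 in control 2.

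The spread between mice could be had only from the sums of all kept barcodes, with 4 libraries per diet, where the share of hepatocytes and the RNA of each cannot be told apart. Of 6666 genes tested with edgeR's quasi-likelihood test, 0 (0%) were called higher and 0 (0%) lower in HFHC libraries at an adjusted p under 0.05. At an unadjusted p under 0.05 there were 54, and DESeq2 called 0, with 126 at an unadjusted p under 0.05. Alb had 572, 1377, 2254 and 20.4 CPM in HFHC 1 to 4, against 528, 3975, 153 and 295 CPM in controls 1 to 4. The groups overlapped, with a log2 change of −0.31 ± 1.40 (SE, edgeR adjusted p = 0.999). For Serpina1e the values were 9.87, 0, 342 and 0 CPM in HFHC 1 to 4, against 93.9, 2550.1, 23.9 and 0 CPM in controls 1 to 4, a log2 change of −2.83 ± 2.46 (SE, edgeR adjusted p = 0.999). Isg15 had 171, 142, 133 and 165 CPM in HFHC 1 to 4, against 188, 42.2, 175 and 139.9 CPM in controls 1 to 4. Control 2 was thus the low library for Isg15, and the other 7 lay between 133 and 188 CPM. On Plin2 HFHC 3 and control 2 stood highest of their diets, with 158, 158, 1008 and 133 CPM in HFHC 1 to 4, against 135, 350.2, 144 and 27.2 CPM in controls 1 to 4 (log2 change 1.27 ± 1.05, SE, edgeR adjusted p = 0.999).

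The listed genes with the smallest p in that fit were Socs2, Anxa5, Hilpda, Apoe and Ctsc, each with an edgeR adjusted p of 0.999. Socs2, a feedback inhibitor of growth hormone signalling, had 286, 312, 16.9 and 42.6 CPM in HFHC 1 to 4, against 23.5, 29.3, 31.1 and 38.9 CPM in controls 1 to 4 (log2 change 2.30 ± 0.82, SE). Apoe had 19997, 20033.5, 1205 and 7029 CPM in HFHC 1 to 4, against 4975, 1832, 6535 and 2464 CPM in controls 1 to 4 (1.59 ± 0.72, SE). HFHC 1 and HFHC 2, which held no members, carried the high values of both genes, and the HFHC and control values overlapped for both.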

How the data were processed

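For 31053 genes in 8 libraries the authors deposited raw UMI counts. The submitters' processing notes name Cell Ranger 3.0.1, Seurat and the build mm10. Not given in the sources used here are Seurat's version, the annotation and the filters on barcodes. No column was left without a sample of the series (0 such columns). The members and the 27 gene lists were chosen with earlier results of these data known, and 1 further list, of cytosolic genes, after its values had been seen.

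Counts were read in Python 3.11.15. Copies of a barcode in libraries with fewer UMIs of it were removed, members were found by the rule, and UMIs were summed over the members of a library and scaled to CPM. Ratios were taken for genes with at least 10 UMIs over HFHC 3 and control 2, with exact conditional 95% intervals from scipy 1.17.1, and a 0 was set to 3 counts. The genes named were those of the 10 highest and 10 lowest ratios of at least 2-fold with at least 100 CPM in the higher library and a level in members no lower than in its other barcodes. Left out of these were predicted genes, genes on the sex chromosomes, and genes for haemoglobin, immunoglobulin, ribosomal proteins and mitochondrially encoded proteins. A gene that met this rule is not reported here. In each list up to 4 genes of the highest level and up to 3 of the largest ratio at 20 CPM or more could also be named. For the fit over libraries these were the 5 listed genes of smallest p.

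Sums of all kept barcodes were tested in R 4.3.3 by edgeR's quasi-likelihood test (version 4.0.16, robust, TMM factors, genes filtered by filterByExpr, Benjamini-Hochberg over 6666 genes), with DESeq2 1.42.0 as an alternative. On simulated counts of this layout, edgeR recovered 0, 10, 28 and 84% of 2-, 4-, 8- and 32-fold changes, with 6 false calls among 67. Scrublet in scanpy 1.11.5 called 1 doublet in HFHC 3 and 1 in control 2, and 0 of these were members, so no barcode was removed. Promoter sequences came from RefSeq on GRCm38.p6. Sequence reads were not used here.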

Additional observations from a re-analysis of the deposited data

Results flagged for a closer look

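In groups of 4 libraries, a value was set aside for a closer look where its gap to the nearest other library was above Dixon's 95% critical value as a share of the group's range. Chance gives such a value in about 1 of 20 groups, and 14 groups were examined, but this rate does not apply to the values below. Members were already known to lie mostly in HFHC 3 and control 2, and the cytosolic list, which includes Fabp1 of the rule, was chosen after its values had been seen, so both are descriptions. The share of members was 72.0% in HFHC 3, far above the other HFHC libraries, and 70.6% in control 2, far above the other control libraries. Cytosolic hepatocyte transcripts outside members reached 8707 CPM in HFHC 3, against 191 to 750.03 CPM in the other HFHC libraries, and 9150.4 CPM in control 2, against 211 to 1179 CPM in the other control libraries. In HFHC 3 and control 2, the barcodes outside members thus also carried these transcripts, at a level below that of members, which was 89769 CPM in HFHC 3 and 81241 CPM in control 2. The part of free RNA in the suspension was not tested.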

How the results depend on the processing

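Members lay in HFHC 3 and control 2, 1 mouse per diet, so no ratio has a replicate, and the planned fit over sums of members per library, with its alternatives, was not run because only these 2 libraries had 10 or more members. The difference in mean share between HFHC and control libraries, −0.456 points, had no fixed direction. It was 2.76 with 40 or more marker UMIs and 3.73 without the condition on 5 other genes, and leaving out 1 library at a time gave −18.5 to 16.9 (exact p of 0.571 to 1). With at least 20 counts per gene, 503 genes were at least 2-fold higher and 205 lower, since fewer genes were compared. In the other 11 alternatives, of which leaving out HFHC 3 members of 1% or more mitochondrial UMIs and members of 5 or more Malat1 UMIs were chosen after seeing the data, both counts stayed within 1.5 times. Of 75 named genes with a ratio of at least 2-fold, 0 changed direction in 12 alternatives, and 6 came under 2-fold in some (Bhmt, Krt18, Orm1, Plg, Alb and Cyp8b1). Changes of scaling moved all ratios alike and by little, and the count filter and doublet removal left them unchanged, so these could not reverse a 2-fold ratio. All 12 used the same 2 mice, so the 0 says nothing on replication. Over 168 named genes, 159 of 2014 values in the alternatives lay outside the gene's interval for counting error. Zone medians by a zone's own anchors kept their direction. In the fit over libraries, leaving out 1 library at a time gave 0 to 0 calls in either direction, with 28 to 385 genes at an unadjusted p under 0.05. Libraries of the same number deviated from the mean of their diet with correlations of 0.498, −0.0809, −0.416 and 0.162. The share of members differed widely between libraries, so these values cannot decide whether the mice were paired. The fit with the replicate block called 0 of 9075 genes. Genes of few UMIs, such as Abcg8 and Cyp1a2, are limited by depth.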

Other observations

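Members of each library were also divided by depth into 3 parts of equal size. Fabp1 stayed near level over these parts, at 33864, 34760 and 31089 CPM from shallow to deep members of HFHC 3 and 30564, 30696 and 32080 CPM in control 2. Alb had 2983, 3114 and 3062 CPM in HFHC 3 members and 6882, 6628 and 5780 CPM in control 2 members, and the ranges of the libraries did not overlap. Serpina1e had 537, 446 and 469 CPM in HFHC 3 members, against 5419, 4758 and 3713 CPM in control 2 members. Idi1 had 66.6, 50.9 and 69.3 CPM in HFHC 3 members, against 339, 348 and 317 CPM in control 2 members, and Isg15 had 178, 129 and 160 CPM, against 72.1, 89.0 and 28.9 CPM. In control 2, the median percentage of mitochondrially encoded UMIs was 6.29, 5.01 and 3.60% over the same parts, while in HFHC 3 it was 0, 0.0447 and 0.0261%.

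Among conjugating enzymes, 4 of 24 genes were at least 2-fold higher and 4 at least 2-fold lower in HFHC 3 members. Over all genes compared, 11.2% were higher and 5.24% lower by as much. Gstm3 had 422 CPM in HFHC 3 members and 129 CPM in control 2 members, while its relative Gstp1 had 3029.5 and 6605 CPM and the sulfotransferase gene Sult2a8 had 195 and 764 CPM. Of 22 hepatocyte transcription factor genes, 1 was at least 2-fold higher, Foxa2, with 39 UMIs in HFHC 3 members and 9 in control 2 members, and 0 were at least 2-fold lower. Cebpb had 516 CPM in HFHC 3 members and 300.5 CPM in control 2 members, and Cebpa had 342 and 376 CPM.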
